A study of Mus musculus with 16 samples.

Results

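Transcripts of the genes that write, maintain and erase DNA methylation were followed in mouse embryonic stem cells in which the ERK pathway was switched on for up to 4 h and then blocked again. The set was made of 9 genes, taken by symbol from the 52636 gene identifiers of the count table: the maintenance writer Dnmt1 and its recruiter Uhrf1, the de novo writers Dnmt3a and Dnmt3b with their cofactor Dnmt3l, the erasers Tet1, Tet2 and Tet3, and the glycosylase Tdg. All 9 were found, and all 9 were among the 12215 genes that passed the filter on low counts. DNA methylation itself was not measured. After 4 h of induction Dnmt3l was 3.30-fold and Dnmt3b 1.33-fold above the uninduced cells, and no other member passed the test at that time.

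Sequencing libraries were made from total RNA without ribosomal RNA of 16 samples in 4 groups of 4, each group with 2 samples of clone 4 and 2 of clone 8 of the CRAFR26 line. This line carries a c-RAF kinase construct that 4-hydroxytamoxifen (4OHT) activates, which in turn drives MEK and ERK. The cells were kept on gelatine in N2B27 with LIF (1000 U/ml), the GSK3 inhibitor Chir (3 µM) and the MEK inhibitor PD03 (1 µM). In every group PD03 was replaced for 48 h by the FGF receptor inhibitor PD173074 at 250 nM, so that signalling through the receptor was also blocked in the uninduced cells. The group 0h was then sampled without 4OHT, 2h and 4h after 2 h and 4 h in 250 nM 4OHT, and rev after 4 h in 4OHT followed by 2 h with a MEK inhibitor. The design held no vehicle control and no culture induced for as long as rev without the MEK inhibitor, so an effect of 4OHT itself, or of time alone, cannot be told apart from that of the kinase or the inhibitor. The labels do not say whether the samples of a clone came from separate cultures, so the p-values measure the spread between these samples, which may in part be technical.

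Cytosine in CpG pairs is methylated by maintenance and by de novo writers. Dnmt1, brought to newly replicated DNA by Uhrf1, copies existing marks to the daughter strand, whereas Dnmt3a and Dnmt3b place new marks, and Dnmt3l, which has no catalytic activity of its own, binds and stimulates them. The Tet enzymes oxidise methylcytosine, and Tdg excises the later oxidation products, which base excision repair then replaces with unmodified cytosine. Mouse embryonic stem cells held with inhibitors of MEK and GSK3 are known for low methylation across the genome, and for low levels of the de novo writers.

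The promoter sequences of the 3 members with the smallest p over the 4 groups are shown first, with their CpG pairs, the sites at which the mark can be placed. RefSeq windows for GRCm38.p6 ran from 250 bases before to 50 bases after a start site, and 16 windows matched the 9 members. Capitals mark CpG pairs, and each sequence reads 5′ to 3′ on the strand of the gene. Dnmt3l had 3 windows, of which the one with the most CpG is shown (chr10:78042037-78042336, plus strand), while Dnmt3b (chr2:153649199-153649498, plus strand) and Tet3 (chr6:83441629-83441928, minus strand) had 1 each.
Dnmt3l: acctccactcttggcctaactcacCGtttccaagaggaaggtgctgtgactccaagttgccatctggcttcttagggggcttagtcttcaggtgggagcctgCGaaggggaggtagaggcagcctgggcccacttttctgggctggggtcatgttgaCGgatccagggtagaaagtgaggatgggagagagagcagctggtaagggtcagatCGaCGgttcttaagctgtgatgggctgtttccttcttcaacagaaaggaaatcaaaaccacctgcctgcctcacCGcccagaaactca
Dnmt3b: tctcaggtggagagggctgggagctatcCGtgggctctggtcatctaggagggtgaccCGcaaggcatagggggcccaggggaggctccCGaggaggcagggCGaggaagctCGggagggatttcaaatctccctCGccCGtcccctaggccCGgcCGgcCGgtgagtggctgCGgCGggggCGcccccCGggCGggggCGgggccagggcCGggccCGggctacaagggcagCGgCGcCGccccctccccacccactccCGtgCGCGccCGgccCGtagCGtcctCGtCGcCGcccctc
Tet3: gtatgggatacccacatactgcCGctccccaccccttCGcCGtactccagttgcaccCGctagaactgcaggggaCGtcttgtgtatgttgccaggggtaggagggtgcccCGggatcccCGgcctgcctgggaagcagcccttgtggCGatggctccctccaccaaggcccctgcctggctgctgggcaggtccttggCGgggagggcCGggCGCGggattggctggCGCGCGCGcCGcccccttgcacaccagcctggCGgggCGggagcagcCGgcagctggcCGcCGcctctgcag
The Dnmt3l window held 6 CpG pairs and its other windows 4 and 3, against a median of 7 over all 32851 windows of this length. The Dnmt3b window held 30, more than 88.3% of all windows, and the Tet3 window 22, more than 76.9%. Among the other members, the windows richest in CpG held 57 (Tet2), 47 (Dnmt3a), 33 (Dnmt1), 33 (Uhrf1), 26 (Tdg) and 17 (Tet1). By its richest window, Dnmt3l was thus the only one of the 9 members with fewer CpG pairs than the median window.

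Matches to 6 short motifs were searched on both strands of these windows, and matches to different motifs did not overlap. TTTCGCGC, a form of the E2F site, was in 0.323% of all windows and in those of 2 members, Dnmt1 (chr9:20952574-20952873, minus strand) and Uhrf1 (chr17:56304063-56304362, plus strand), the pair that acts at replication. Their sequences are shown for that shared match, with the E2F letters (read on the opposite strand in Dnmt1) in capitals. In Uhrf1 the capitals also mark CCGGAA, the core of ETS sites, on the opposite strand, the only match to it among the 16 windows.
Dnmt1: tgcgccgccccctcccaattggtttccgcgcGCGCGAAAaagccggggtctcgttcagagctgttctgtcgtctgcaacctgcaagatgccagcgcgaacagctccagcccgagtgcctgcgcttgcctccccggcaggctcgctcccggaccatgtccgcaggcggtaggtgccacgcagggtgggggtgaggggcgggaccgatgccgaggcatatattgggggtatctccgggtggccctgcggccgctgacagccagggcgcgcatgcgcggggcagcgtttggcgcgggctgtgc
Uhrf1: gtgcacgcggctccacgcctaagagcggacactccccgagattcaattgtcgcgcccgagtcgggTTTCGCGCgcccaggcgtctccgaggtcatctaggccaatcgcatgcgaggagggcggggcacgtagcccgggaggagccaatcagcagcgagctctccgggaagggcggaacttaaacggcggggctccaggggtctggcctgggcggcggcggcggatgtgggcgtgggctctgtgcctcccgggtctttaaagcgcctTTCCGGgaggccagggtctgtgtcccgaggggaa
The E2F match lay 219 bases before the start site in Dnmt1 and 185 bases before it in Uhrf1. The motif itself contains CpG pairs, and each of these windows held 33, more than 91.4% of all windows. The share of all windows with a match is not adjusted for CpG content or for the several windows of a member. Whether E2F factors act on these genes was not tested. The GC box GGGCGG was in 12 member windows, of 8 members, and in 35.7% of all windows. The E-box CACGTG was in 3 member windows (7.15% of all), TGACGT of the cAMP response element in 2 (7.51%), the STAT site TTCNNNGAA in 2 (8.3%) and the ETS core in 1 (14.9%). The windows of Dnmt3b and Tet3 held GC boxes and none of the other letters searched, which says nothing about the factors that may act there.

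Library depth ranged from 2172651 to 12680303 counts. Between 42.0% and 80.4% of the counts of a library fell on the 8 gene models most abundant over all 16 libraries, the same 8 in each. Replicate 2 of clone 8 in rev was the highest and replicate 1 of clone 4 at 4h the lowest. Levels are given as CPM, counts per library size in the usual unit, with the library size scaled by TMM (trimmed mean of M values), and 3 counts correspond to 0.213 to 1.35 CPM, by library. All 9 embryonic stem cell markers listed passed the filter, with a summed level of 1812 to 2560 CPM. This sum hides changes in both directions. Of the 9, 4 were higher and 3 lower at 4h versus 0h, while 4 were higher and 4 lower in rev versus 4h. Mean CPM in 0h, 4h and rev was 394, 250 and 392 for Nanog, beside 172, 226 and 180 for Sox2. Fibroblast markers summed to 2.44 to 3.74 CPM at 0h, 2.63 to 4.26 at 2h, 1.87 to 3.85 at 4h and 2.88 to 7.66 in rev. Postn had 0 counts in every library, while Col1a1 had 0.519, 1.34, 1.01 and 1.98 CPM in the same order. Of 2 fibroblast genes tested, 1 was higher at 2h and 1 in rev versus 0h, beside 11.4% and 12.4% of all tested genes. Primitive endoderm markers summed to 3.26 to 7.21 CPM. Mesoderm markers summed to 5.77 to 8.96 CPM at 0h, 16.3 to 25.5 CPM at 4h and 6.96 to 10.2 CPM in rev. Of 3 mesoderm genes tested, 2 were higher at 4h versus 0h and 0 lower. T went from 1.74 CPM at 0h to 10.1 at 4h, Eomes from 3.85 to 7.46 and Mixl1 from 1.21 to 2.26. Neural markers summed to 1.49 to 3.70 CPM at 0h, 4.21 to 4.67 CPM at 4h and 4.37 to 7.38 CPM in rev, and trophoblast markers to 32.0 to 49.8, 21.3 to 37.7 and 28.5 to 42.5 CPM. The neural gene Pax6 (log2 1.63, adjusted p = 0.00323) and the trophoblast gene Cdx2 (1.95, adjusted p = 2.21e-05) were higher at 4h versus 0h. The most abundant trophoblast gene, Tfap2c, was lower (-0.73, adjusted p = 3.76e-07, from 38.9 to 23.8 CPM), and neural Sox1 was not called (0.25, adjusted p = 0.601). The part of these marker genes in the members' changes was not tested. In bulk RNA, fewer cells with a transcript and less of it per cell cannot be told apart.

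Compared per length, as CPM per kilobase of exon (RPKM), the maintenance pair and the erasers Tet1 and Tet2 stood above the de novo writers. Over the 16 libraries Uhrf1 averaged 67.9 RPKM ± 11.2 (SD), above 98.7% of the tested genes, and Dnmt1 31.6 ± 2.45. Tet1 followed at 22.2 ± 2.67 and Tet2 at 17.0 ± 1.66. Dnmt3b, at 6.53 ± 1.03 RPKM, was above 72.7% of tested genes and was the most abundant of the de novo writers. Dnmt3l (3.03 ± 2.09 RPKM), Tdg (1.71 ± 0.360), Dnmt3a (1.52 ± 0.237) and Tet3 (1.03 ± 0.201) formed the low end, Tet3 being above 23.5% of tested genes. Dnmt3l was the eighth in order at 0h (1.54 RPKM), where its range overlapped those of Dnmt3a and Tet3, and the sixth at 4h (5.01 RPKM). At 4h its range overlapped neither that of Dnmt3b above it nor that of Tdg below it, while Tdg and Dnmt3a overlapped each other in every group.

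**Figure D1:**
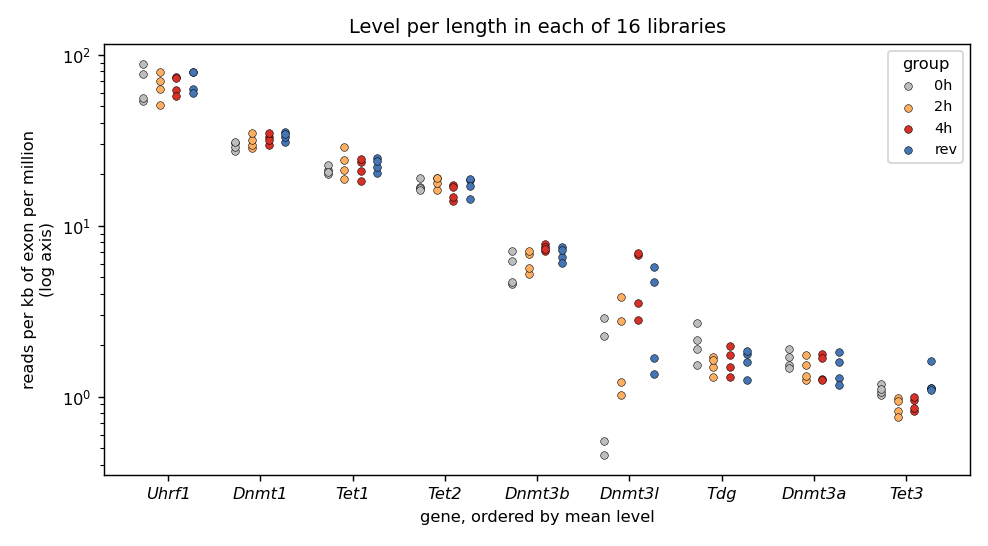
Level of each gene per length (RPKM, log axis), 1 point per library and coloured by group, genes in order of their mean. Uhrf1 lies highest (mean 67.9), Tet3 lowest (mean 1.03), and Dnmt3l spreads most widely on the log axis.

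The maintenance pair, Dnmt1 and Uhrf1, showed no called change in any of the 5 group comparisons. Dnmt1 was at 217 CPM ± 11.2 (SD, n = 4) at 0h, 230.4 ± 20.9 at 2h and 238 ± 15.3 at 4h, and rev had 246 ± 14.9. Its fold at 4h versus 0h had a 95% interval of 0.997 to 1.21. In rev versus 0h its log2 fold change of 0.18 had an adjusted p of 0.0579 in edgeR's quasi-likelihood test with Benjamini-Hochberg adjustment, the test behind each adjusted p here unless another is named. Without replicate 1 of clone 4 at 0h that p was 0.0242. Uhrf1 was at 294 CPM ± 71.9 at 0h and 284 ± 35.9 at 4h, with an interval of 0.877 to 1.09 for the fold. Uhrf1 differed by clone instead, at 331 CPM in clone 8 and 248 in clone 4 (log2 difference 0.41, SE 0.05, adjusted p = 3.12e-07).

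**Figure D2:**
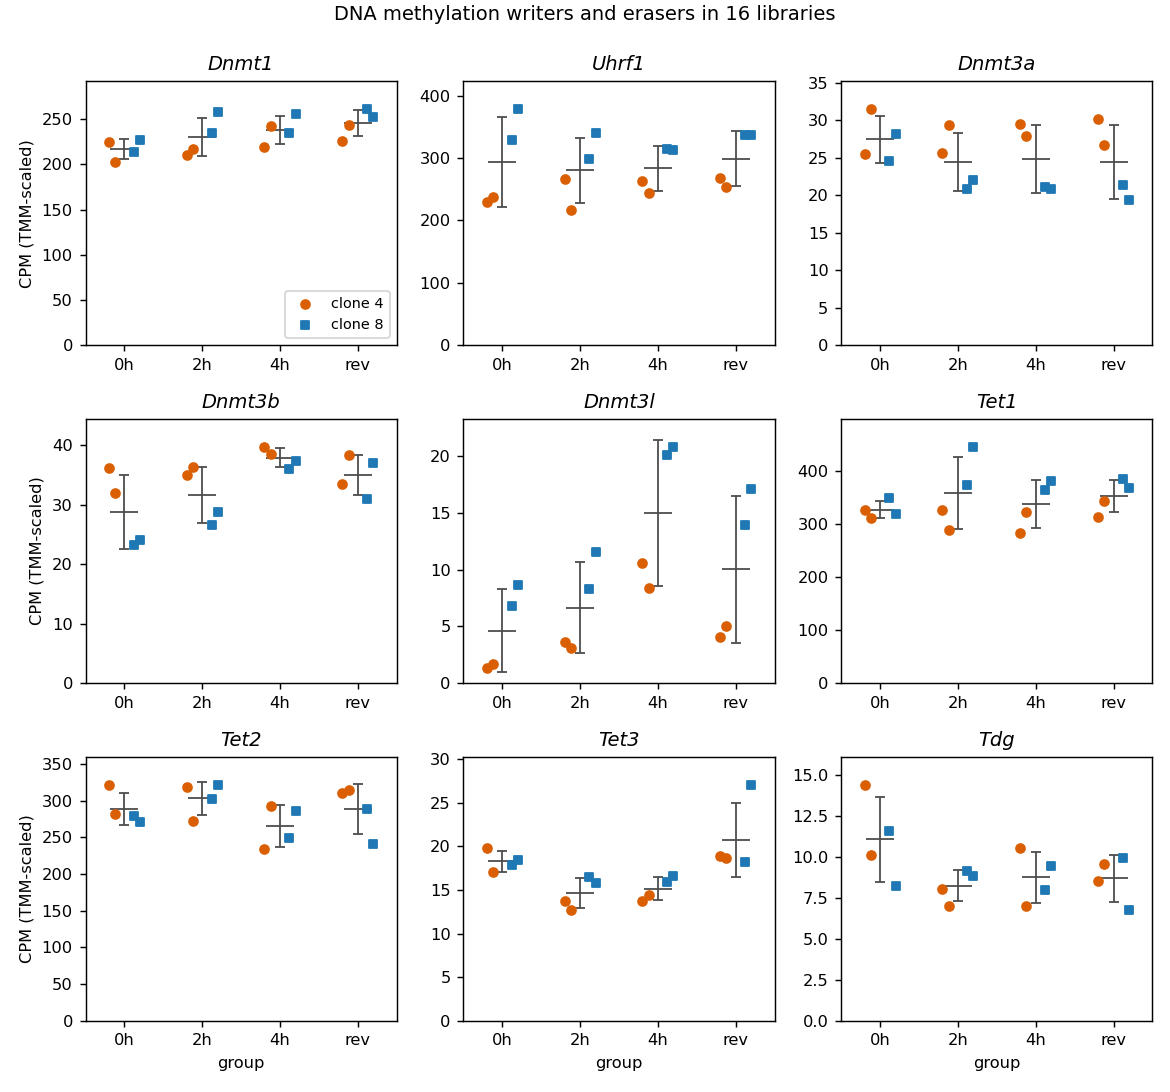
CPM (TMM-scaled) of the 9 genes in every library, with clone 4 as circles and clone 8 as squares. Horizontal lines are group means and bars 1 SD (n = 4): Dnmt3l rises from a mean of 4.60 at 0h to 15.0 at 4h, with clone 8 above clone 4 in every group.

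Dnmt3l, the cofactor of the de novo writers, gave the largest difference of the set. At 0h it was at 1.36 and 1.64 CPM in the clone 4 libraries, from 5 and 11 counts, and at 6.75 and 8.66 CPM in those of clone 8. At 2h it was at 3.07 and 3.62 CPM in clone 4 and 8.28 and 11.5 in clone 8, and at 4h at 8.41 and 10.6 CPM in clone 4 and 20.1 and 20.8 in clone 8. Every 4h library lay above every 0h and 2h library of its own clone, while the groups overlapped across clones, since clone 4 at 4h was close to clone 8 at 0h. The mean rose from 4.60 CPM ± 3.67 (SD, n = 4) to 15.0 ± 6.40, a log2 fold change of 1.72 (SE 0.18, adjusted p = 3.65e-09) or 3.30-fold, with an interval of 2.55 to 4.27. Its 4h level was 2.34-fold above that of 2h (log2 1.23, SE 0.17, adjusted p = 3.77e-06), a call lost without the clone term (0.94, adjusted p = 0.398). The comparison of 2h with 0h gave 1.41-fold with an adjusted p of 0.0635, short of the threshold of 0.05. The 2h difference passed without the low-count filter (adjusted p = 0.0355), and without replicate 2 of clone 8 at 0h (log2 0.79, adjusted p = 0.0187), replicate 1 of clone 8 at 2h (0.65, adjusted p = 0.0316) or replicate 1 of clone 4 at 4h (0.49, adjusted p = 0.0464). Without replicate 2 of clone 8 at 2h it went from 0.50 to 0.32 (adjusted p = 0.364).

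In rev Dnmt3l was at 4.05 and 4.996 CPM in clone 4 and 13.9 and 17.1 in clone 8, below both 4h libraries and above both 0h libraries of the same clone. It fell by 0.74 on the log2 scale against 4h (SE 0.17, adjusted p = 0.00229), to a mean of 10.02 CPM ± 6.50, and stayed 1.98-fold above 0h (adjusted p = 0.000657). The difference from 0h did not pass with library size alone (log2 0.65, adjusted p = 0.130) or without the clone term (0.83, adjusted p = 0.357). Of the log2 rise at 4h, a share of 0.430 was undone in rev from the fitted values, and 0.223 to 0.486 over the 4 sets of same-numbered samples, whose numbers do not pair them. The fall did not pass with the share of the 8 top gene models as a covariate (log2 -0.51, adjusted p = 0.101) or without the clone term (-0.67, adjusted p = 0.482).

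The clones differed in Dnmt3l by a larger fold than in any other member. It was at 13.4 CPM in clone 8 and 4.71 in clone 4 over all groups, a log2 difference of 1.5 (SE 0.13, adjusted p = 6.49e-11). Of the 9 members 5 differed between clones, against 29.1% of all tested genes: Dnmt3l, Uhrf1 and Tet1 (log2 0.24, adjusted p = 0.00103) were higher in clone 8, and Dnmt3a (-0.33, adjusted p = 0.000383) and Dnmt3b (-0.26, adjusted p = 0.00238) were lower. From its low start in clone 4, Dnmt3l was 6.12-fold higher at 4h than at 0h (log2 2.61, SE 0.32), and in clone 8 2.60-fold (log2 1.38, SE 0.20). The gain in level was 7.99 CPM in clone 4 and 12.8 CPM in clone 8. The difference in fold between clones was -1.24 on the log2 scale (SE 0.41) with an adjusted p of 0.185.

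No member passed the test for a difference in response between the clones in any comparison, by edgeR's quasi-likelihood test. Such differences were rare among all tested genes, at 0.0901% for 2h versus 0h, 0.311% for 4h versus 0h, 0.0327% for 4h versus 2h, 0.00819% for rev versus 4h and 0.0573% for rev versus 0h. Of the 45 member tests, 5 had an unadjusted p under 0.05: Dnmt3l at 4h versus 0h and in rev versus 4h, Dnmt3b at 4h and in rev versus 0h, and Tet1 at 2h versus 0h. The shares above are by adjusted p, and none at the unadjusted threshold is given, so this count has no background. The 45 tests also share libraries and are not independent.

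Dnmt3b, the more abundant of the catalytic de novo writers, also rose. At 0h it was at 36.1 and 31.9 CPM in clone 4 and 23.2 and 24.1 in clone 8, and at 4h at 39.7 and 38.6 in clone 4 and 36.1 and 37.4 in clone 8. The highest 0h library and the lowest 4h library, both near 36.1 CPM, came from different clones, and within each clone the 4h libraries lay above those of 0h. The mean rose from 28.8 CPM ± 6.26 to 37.9 ± 1.56 (log2 0.41, SE 0.09, adjusted p = 0.00077), 1.33-fold with an interval of 1.17 to 1.52. In clone 8 the difference was 1.55-fold (log2 0.63, adjusted p = 0.000328) and in clone 4 1.16-fold (log2 0.22, adjusted p = 0.180), and the difference between clones had an adjusted p of 0.302. At 2h Dnmt3b was at 31.6 CPM ± 4.75, with an adjusted p of 0.286 against 0h and of 0.0627 for 4h versus 2h, which became 0.0399 without replicate 1 of clone 4 at 0h. The difference between 4h and 2h (log2 0.27) also passed with the share of the 8 top gene models as a covariate (0.33, adjusted p = 0.0190) and with only those 2 groups in the fit (0.27, adjusted p = 0.0357). Scaled by library size alone, its rise at 4h was 0.53 with an adjusted p of 0.174.

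In rev Dnmt3b was at 33.5 and 38.4 CPM in clone 4 and 31.0 and 37.0 in clone 8, overlapping the 4h group (log2 -0.14, adjusted p = 0.318). Its mean was 1.21-fold above 0h (log2 0.27, SE 0.10, adjusted p = 0.0422). This last call was near the threshold: it held without 6 of the 16 libraries in turn and was lost without each of the other 10, where adjusted p reached 0.136. Over the 11 alternatives it held in 4, and with library size alone the sign turned (-0.04, adjusted p = 0.923), where the median of all genes was -0.32. The share of the rise undone in rev was 0.347 from the fitted values but ranged from 0.0147 to 1.80 over the same 4 sets, and the difference from 4h was not called.

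Dnmt3a, the other catalytic de novo writer, showed no called change. It was at 27.5 CPM ± 3.09 at 0h, 24.5 ± 3.83 at 2h and 24.8 ± 4.53 at 4h, and rev had 24.4 ± 4.93, with ranges that overlapped in each of the 5 comparisons. Its log2 fold change was -0.22 at 2h (adjusted p = 0.0940) and -0.17 at 4h (adjusted p = 0.170, interval of the fold 0.775 to 1.02). Both passed with the share of the 8 top gene models as a covariate, at -0.25 and -0.27, and without replicate 1 of clone 4 at 0h, at -0.29 (adjusted p = 0.0231) and -0.25 (adjusted p = 0.0444). Without replicate 2 of clone 8 at 0h they were -0.13 (adjusted p = 0.434) and -0.09 (adjusted p = 0.540).

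Per length, Dnmt3l made up 17.4% of the summed RPKM of the 3 de novo genes at 0h, 22.2% at 2h and 35.0% at 4h, and rev had 27.2%. Dnmt3b had 63.9%, 62.9%, 54.0% and 59.7% in the same order, and Dnmt3a 18.7%, 14.9%, 10.98% and 13.1%. Within clone 4 the Dnmt3l share was 5.67% at 0h and 25.2% at 4h, and within clone 8 it was 29.2% and 44.8%, so both clones moved in the same direction. These shares are a description of means, with no test.

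Among the erasers, Tet3 was the only one called in a group comparison. It was at 17.0 to 19.8 CPM at 0h, at 12.7 and 13.7 CPM in clone 4 and 15.8 and 16.5 in clone 8 at 2h, and at 13.7 and 14.4 in clone 4 and 15.95 and 16.6 in clone 8 at 4h. All 8 induced libraries lay below all 4 uninduced ones, yet neither difference passed the test across genes: at 2h the log2 fold change was -0.27 (adjusted p = 0.0682) and at 4h -0.26 (adjusted p = 0.0737). In rev it was at 18.9 and 18.7 CPM in clone 4 and 18.2 and 27.0 in clone 8, above every 4h library. Tet3 rose there by 0.40 on the log2 scale against 4h (SE 0.11, adjusted p = 0.0120), 1.32-fold with an interval of 1.13 to 1.55, from 15.2 CPM ± 1.32 to 20.7 ± 4.23. The library at 27.0 CPM also had 80.4% of its counts in the 8 most abundant models. Without it the rise was 0.33 (adjusted p = 0.0434) and the 4h difference from 0h passed (-0.27, adjusted p = 0.0467). Without replicate 1 of clone 4 at 4h the rise was 0.37 (adjusted p = 0.0524). Scaled by library size alone, where the median of all genes moved to -0.41, Tet3 was at -0.02 and did not pass. Its rise also did not pass with the share of the 8 top gene models as a covariate (0.29, adjusted p = 0.179), without the clone term (0.42, adjusted p = 0.0509) or without the 3 libraries farthest in that share or in depth (0.29, adjusted p = 0.147).

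Tet1 and Tet2, the abundant erasers, were called in no group comparison. Tet1 was at 326 CPM ± 16.4 at 0h, 358 ± 67.3 at 2h and 337 ± 44.5 at 4h, and rev had 352 ± 30.5, with an interval of 0.919 to 1.15 for its fold at 4h. Within clone 8 alone Tet1 was higher at 2h than at 0h (log2 0.29, SE 0.10, adjusted p = 0.0389), and within clone 4 its log2 fold change was -0.05 (adjusted p = 0.861). The difference between clones was 0.34 with an adjusted p of 0.433. Tet2 was at 289 CPM ± 22.4, 304 ± 22.5, 266 ± 28.3 and 289 ± 33.8 in the same order, with an interval of 0.819 to 1.04. Of the summed RPKM of the 3 Tet genes, Tet1 made up 53.7% to 56.6% by group, Tet2 41.0% to 43.5% and Tet3 2.10% to 3.03%. Tdg, which excises the products of the Tet enzymes, was at 11.1 CPM ± 2.60 at 0h and 8.75 ± 1.57 at 4h, and its fold of 0.822 had an interval of 0.653 to 1.03. At 2h its log2 fold change was -0.31 (adjusted p = 0.166), and -0.47 (adjusted p = 0.0497) without replicate 2 of clone 8 at 0h. Tdg had 15 to 124 counts per library, and 6.8% of its exon bases are shared with Glt8d2 on the opposite strand.

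The members' counts of called genes were set against those of all tested genes. At 2h versus 0h none of the 9 members passed in edgeR's test or in DESeq2. By adjusted p, 11.4% of tested genes were called higher, 9.68% lower and 21.1% either. Of the 9 members 3 had an unadjusted p under 0.05. At 4h versus 0h 2 were higher and none lower (1 with an unadjusted p under 0.05), against 17.2% and 16.8% of tested genes (33.9% in all). At 4h versus 2h 1 was higher against 3.8%, and none lower (1 unadjusted) against 3.52%, with 7.32% in all. In rev versus 4h 1 was higher and 1 lower, against 7.93% and 8.43% (16.4% in all), and in rev versus 0h 2 were higher and none lower (0 unadjusted), against 12.4% and 9.86% (22.3% in all). Over the 4 groups together 3 of the 9 differed, namely Dnmt3l (adjusted p = 1.38e-08), Dnmt3b (0.00377) and Tet3 (0.00539), against 40.3% of tested genes. All shares of tested genes here are by adjusted p. No share at an unadjusted p under 0.05 is given, so the unadjusted counts have no background. None of the counts by adjusted p sets the members apart from genes at large.

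The groups of 1 member did not overlap in CPM at 2h versus 0h (15.4% of tested genes), at 4h versus 0h (23.2%) and in rev versus 4h (13.3%), Tet3 each time, and those of none at 4h versus 2h (8.35%) or in rev versus 0h (16.8%). The median log2 fold change of the members was 0.08 at 2h and -0.03 at 4h versus 0h, beside -0.02 at both times over all tested genes. It was 0.0225 at 4h versus 2h beside -0.0016, 0.05 in rev versus 4h beside 0.01, and 0.1075 in rev versus 0h beside -0.0068. The comparisons with 0h share its libraries, and those with 4h likewise.

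**Figure D3:**
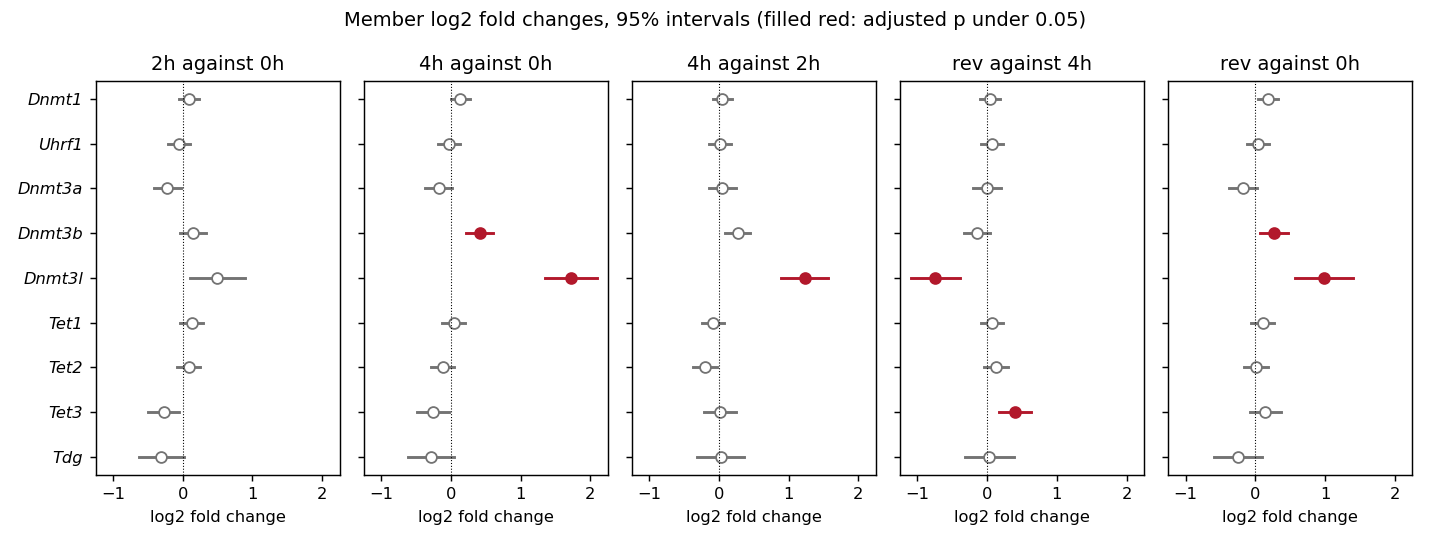
Log2 fold change of each gene in the 5 comparisons, with 95% intervals. Filled points passed an adjusted p of 0.05: Dnmt3l at 4h versus 0h (1.72) lies farthest to the right, and Tet3 passed in rev versus 4h (0.40).

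Genes whose levels moved most like those of the 3 members were looked for among 8635 others, as Pearson correlations of log2 CPM over 16 libraries centred within clone, which share the 4 groups and their scaling. For Dnmt3l these included Itpk1 (r = 0.965) and L1td1 (0.963), the latter at 110.3 CPM at 0h and 207 at 4h. For Dnmt3b they were Mt1 (0.927), a metallothionein, Pa2g4 (0.918) and Srm (0.918), the spermidine synthase. For Tet3 they were Apobec3 (0.953), Rara (0.934), a retinoic acid receptor, and Arrb2 (0.917). Rara had 17.2, 12.3, 14.4 and 20.1 CPM in 0h, 2h, 4h and rev. Among the members themselves, Dnmt3b went with Dnmt3l at r = 0.707 and against Dnmt3a at -0.683, and Tet1 with Tet2 at 0.684, over the same 16 libraries.

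Cofactors and regulators of the writers formed a list of 15 genes, of which 6 were higher and 3 lower at 4h versus 0h, with a median log2 fold change of 0.11 beside -0.02 for all genes. For this and the next lists, 17.2% of all tested genes were called higher and 16.8% lower at 4h versus 0h, and 7.93% and 8.43% in rev versus 4h. Prdm14, which represses de novo writers in these cells, fell by 1.27 on the log2 scale (SE 0.13, adjusted p = 9.95e-10), from 31.1 to 13.1 CPM, and rose again by 1.06 in rev to 26.8 CPM. Dppa3, which keeps Uhrf1 off chromatin, fell by 0.54 from 47.7 to 33.1 CPM, and rose again by 0.32 in rev to 42.1 CPM. Pcna, the replication clamp, rose by 0.36 and Mat2a, which makes the methyl donor, by 0.36 (163 to 209.6 CPM). In rev versus 4h 2 of the 15 were higher and 1 lower (Pcna, log2 -0.32).

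Of 10 tested cofactors and regulators of the erasers, from 12 listed, 4 were higher and 4 lower at 4h. Listed were Ogt, Cxxc4, Cxxc5, Vdr, Wt1, Dppa4, Hif1a, Idh1, Idh2, Slc25a11, Pole and Nanog. A part of each of them in the work of the erasers, as for Dppa4 and Pole, was not tested. Dppa4 rose by 0.96 (16.2 to 31.6 CPM) and fell by 1.02 in rev, and Nanog, a pluripotency factor that binds Tet1, fell by 0.68 (393.5 to 249.98 CPM) and rose by 0.66 in rev. Slc25a11, the mitochondrial oxoglutarate carrier, fell by 0.59. Wt1, which recruits Tet2, had a log2 fold change of 2.42 (adjusted p = 0.000157) from 0, 2, 4 and 4 counts in the 0h libraries, so its size is poorly known. In rev versus 4h 4 were higher and 1 lower. The median of this list at 4h was -0.00 beside -0.02 for all genes.

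Of 10 readers of methylated DNA, 4 were lower and 1 higher at 4h. Zbtb4 fell by 0.94 to 3.27 CPM and Mbd4 by 0.58, both of them proteins that bind methylated CpG, while Zfp57, which guards imprinted marks, rose by 0.47 (157 to 218 CPM). In rev Zbtb4 rose by 0.77 and Zfp57 fell by 0.45, the only 2 of the 10 to pass against 4h. The median of the readers was -0.15 at 4h beside -0.02 for all genes.

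Base excision repair, which completes demethylation after Tdg, had 3 of 12 genes higher and 4 lower at 4h, with a median of -0.17. The glycosylases Neil2 (log2 -1.22, from 2.22 to 0.965 CPM), Neil1 (-0.66) and Neil3 (-0.56) fell, as did the scaffold Xrcc1 (-0.42), which rose by 0.38 in rev as the only 1 of the 12. The 3 that rose, named after their values were seen, were more abundant than the Neil genes: the uracil glycosylase Ung (0.38, 53.8 to 69.3 CPM), the endonuclease Apex1 (0.37, 18.7 to 23.8 CPM) and Parp1 (0.28, 242 to 293 CPM). Neil2 rests on 3 to 9 counts per library at 4h. Of 5 tested genes for deamination and the Gadd45 proteins, from 7 listed, 3 were lower and 1 higher at 4h, with a median of -0.86. Apobec2 fell by 1.24, Gadd45b by 1.09 and Apobec1 by 0.86, and Gadd45a rose by 1.03 (2.18 to 4.30 CPM). In rev, where 2 were higher and 1 lower, Gadd45b rose by 1.63 to 16.8 CPM, above its 0h level of 11.7, and Gadd45a fell by 2.0 to 1.11 CPM.

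Of 12 germline genes that promoter methylation is known to hold silent, 6 passed the filter and 2 were higher at 4h: Sycp1 (log2 0.56, 5.68 to 8.68 CPM) and Dazl (0.39, 73.1 to 98.1 CPM), with none lower and a median of 0.27. In rev versus 4h 1 was higher, Brdt, by 0.57. Genes of S phase are set beside the maintenance pair because Dnmt1 and Uhrf1 act at replication, and 7 of 12 were higher and none lower at 4h, beside the 17.2% and 16.8% of all tested genes. Ccne1 rose by 0.40, Ccne2 by 0.39, Mcm4 by 0.30 and Mcm3 by 0.24, and in rev both cyclins fell, by 0.38 and 0.50. The S phase median was 0.19 at 4h, while Dnmt1 was at 0.14 and Uhrf1 at -0.03.

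**Figure D4:**
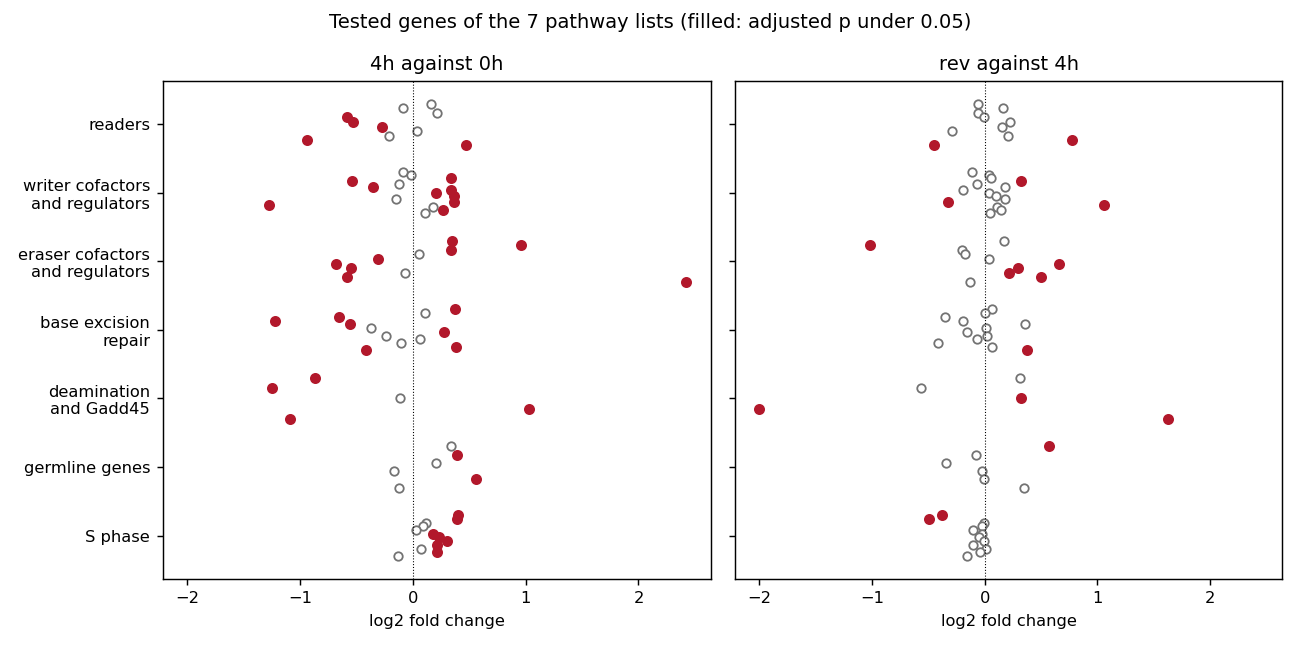
Log2 fold change of every tested gene of the 7 lists at 4h versus 0h and in rev versus 4h, filled where adjusted p was under 0.05. Wt1 (2.42) lies farthest right at 4h and Gadd45a (-2.0) farthest left in rev, and the 7 filled S phase genes all lie right of 0 at 4h.

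The list counts depend on the scaling and, less often, on other settings. Scaled by library size alone, where the median of all genes was at 0.09 for 4h versus 0h, 0 S phase genes, 0 readers, 0 repair genes and 0 germline genes passed by edgeR's quasi-likelihood test, and those that did were Prdm14, Wt1, Dppa4, Gadd45a, Gadd45b and Apobec2. The log2 fold changes on that scale were 0.58 for Zfp57 (0.47 with TMM), 0.51 for Ccne1 (0.40), 0.70 for Sycp1 (0.56) and -0.84 for Zbtb4 (-0.94). No list gene called at 4h versus 0h was of the opposite sign on that scale or with RLE size factors. In rev versus 4h, 5 called genes were of the opposite sign with library size alone (Dppa3, Ogt, Pole, Xrcc1 and Apobec3), though above the median of all genes, which was -0.41. With the same 3 libraries left out, 6 of 12 S phase genes were higher at 4h, and the other list counts at 4h were as before, except that Gadd45a no longer passed.

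By GENCODE M21 on GRCm38, the members lie at chr9:20907209-20959888 (Dnmt1, minus strand), chr17:56303321-56323486 (Uhrf1, plus), chr12:3806007-3914443 (Dnmt3a, plus), chr2:153649450-153687730 (Dnmt3b, plus) and chr10:78041947-78063622 (Dnmt3l, plus). The erasers lie at chr10:62804570-62908996 (Tet1, minus), chr3:133463679-133545139 (Tet2, minus) and chr6:83362373-83459084 (Tet3, minus), and Tdg at chr10:82629828-82650799 (plus). Exons of 4 members overlap those of a gene on the opposite strand: Dnmt3l shares 2.2% of its exon bases with Aire, Dnmt3a 0.8% with Dnmt3aos, Tet2 0.3% with Gm42567 and Tdg the 6.8% given above. Reads in these stretches cannot be assigned to 1 gene, since the strand setting of the counting is not given in the sources used here.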

How the data were processed

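The authors deposited raw counts per gene, whole numbers that are not normalized, for 16 samples in 1 table. Reads were processed with bcl2fastq 2.19.1 and STAR 2.5.3a on mm10, per the submitters' processing notes, and the counting tool, annotation and strand setting are not given in the sources used here. Of 52636 identifiers 52489 matched GENCODE M21, used for symbols and exon lengths.

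The tools were edgeR 4.0.16, limma 3.58.1 and R 4.3.3. The filter filterByExpr left 12215 genes, TMM factors were 0.463 to 1.47, and all 16 libraries entered 1 quasi-likelihood model of group plus clone, with two-sided contrasts and Benjamini-Hochberg adjustment over all tested genes at 0.05. A model with a term for each group in each clone gave the differences between clones. The 2 samples of each group and clone differed by more than sampling noise. The script was tested on simulated data.

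Members and lists were chosen with earlier results of these data known. All members were named, and the rule for each list took at most the 4 called genes with the largest change at 4h versus 0h and 2 in rev versus 4h. Other list genes, such as Ung, Apex1 and Parp1 at 4h and Pcna in rev, were named after their values were seen. Genes like a member have at least 5 CPM. Of the genes these rules select, 2 are not reported here. Alternatives were RLE factors, library size alone, no filter, a mean of 1 CPM, no clone term, a replicate block, removal of the 8 most abundant models or their percentage as a covariate, only the 2 groups compared, DESeq2 1.42.0 and leaving out each library. Leaving out 3 libraries together was chosen after seeing the data. Floors of 3 counts cover counting error only.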

Additional observations from a re-analysis of the deposited data

Results flagged for a closer look

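Tet3 in replicate 2 of clone 8 in rev, at 27.0 CPM, stood apart from the other 3 rev libraries, which lay between 18.2 and 18.9 CPM. Its gap to the nearest of them was 0.928 of the range of the group, above the critical value of 0.829 of Dixon's test for 4 samples. Chance alone gives such a value in about 1 of 20 groups, and 9 genes were examined in 4 groups. The same library had the highest percentage of counts in the 8 most abundant models, at 80.4%. Without it Tet3 in rev versus 4h had a log2 fold change of 0.33 and an adjusted p of 0.0434 in edgeR's quasi-likelihood test, and with that percentage as a covariate over all libraries 0.29 and an adjusted p of 0.179, no longer called.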

How the results depend on the processing

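Dnmt3l at 4h versus 0h was called in all 11 alternatives (log2 1.5 to 1.88) and without each of the 16 libraries (1.61 to 2.00), and Dnmt3b in 10 and in 16. The other calls held less often: over the 11 alternatives Dnmt3l held in 10 at 4h versus 2h, in 9 in rev versus 4h and in 9 in rev versus 0h, Tet3 in rev versus 4h in 7 and Dnmt3b in rev versus 0h in 4.

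With library size alone the members called higher were 1 at 4h versus 0h, 0 in rev versus 4h and 0 in rev versus 0h, 1 differed over the 4 groups and 3 between clones. The median of all genes was then 0.09 at 4h versus 0h, 0.10 at 4h versus 2h, -0.41 in rev versus 4h and -0.32 in rev versus 0h, and signs turned for Uhrf1 (0.070) at 4h versus 0h and Tet1 (0.0060) at 4h versus 2h. In rev versus 4h they turned for Dnmt1 (-0.38), Uhrf1 (-0.36), Tet1 (-0.35), Tet2 (-0.27), Tet3 (-0.021) and Tdg (-0.39), and in rev versus 0h for Dnmt1 (-0.14), Uhrf1 (-0.29), Dnmt3b (-0.039), Tet1 (-0.21), Tet2 (-0.30) and Tet3 (-0.18). Relative to the median of all genes on that scale, each of these members kept its sign.

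Without the low-count filter 1 member was higher at 2h and 1 in rev versus 0h, with signs turned for Uhrf1 (-0.0062), Tet3 (-0.019) and Tdg (-0.011) at 4h versus 2h and Tet2 (-0.0041) in rev versus 0h. Without the clone term 0 members were higher at 4h versus 2h, 0 higher and 0 lower in rev versus 4h, 0 higher in rev versus 0h, and 1 differed over the groups, with Tet3 at -7.0e-05 at 4h versus 2h. With the percentage in 8 models as a covariate 1 member was lower at 2h, 1 at 4h versus 0h, 2 higher at 4h versus 2h, 0 higher and 0 lower in rev versus 4h and 1 higher in rev versus 0h. Signs then turned for Uhrf1 (-0.020), Dnmt3a (-0.018) and Tdg (-0.014) at 4h versus 2h and Dnmt3a (0.13) in rev versus 4h. With only the 2 groups compared 2 were higher at 4h versus 2h and 1 in rev versus 0h, with Dnmt3a at 0.00059 in rev versus 4h and Tet2 at -0.0039 in rev versus 0h. With 3 libraries left out (chosen after seeing the data) 1 was higher at 2h, 0 in rev versus 4h and 1 in rev versus 0h, 2 differed over the groups, and Uhrf1 (-0.058) and Tdg (-0.13) at 4h versus 2h and Dnmt3a (0.071) in rev versus 4h turned. RLE factors, the 1 CPM filter, DESeq2 and the 8 models removed moved no member count by over 1.5 times, but in DESeq2 Dnmt1 passed in rev versus 0h (0.18, adjusted p = 0.0322) and Dnmt3b did not (adjusted p = 0.0654), and Dnmt1 also passed with the 8 models removed (0.19, adjusted p = 0.0460). The causes of these changes were not tested.

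Leaving out each library in turn, members higher ranged from 0 to 1 at 2h, 1 to 2 at 4h versus 2h, 0 to 1 in rev versus 4h and 1 to 3 in rev versus 0h, and members lower from 0 to 1 at 2h and 0 to 1 at 4h versus 0h. Values that turned their sign ranged from -0.11 to 0.025 (Uhrf1) at 2h, from -0.072 to 0.042 (Uhrf1) and -0.016 to 0.085 (Tet1) at 4h versus 0h, and from -0.024 to 0.080 (Uhrf1), -0.0031 to 0.048 (Tet3) and -0.11 to 0.14 (Tdg) at 4h versus 2h. They ranged from -0.086 to 0.030 (Dnmt3a) and -0.10 to 0.17 (Tdg) in rev versus 4h, and from -0.0018 to 0.11 (Uhrf1) and -0.021 to 0.068 (Tet2) in rev versus 0h.

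With library size alone, genes called higher and lower among all tested went from 1390 and 1182 to 204 and 134 at 2h, from 2098 and 2048 to 554 and 327 at 4h and from 464 and 430 to 88 and 12 at 4h versus 2h. They went from 969 and 1030 to 57 and 1671 in rev versus 4h and from 1518 and 1204 to 105 and 905 in rev versus 0h. Without the clone term they were 747 and 462 at 2h, 1459 and 1323 at 4h, 129 and 90 at 4h versus 2h, 418 and 463 in rev versus 4h, and 876 and 576 in rev versus 0h. With the covariate they were 577 and 652 in rev versus 4h, and with the 3 libraries left out 257 were lower at 4h versus 2h and 625 higher in rev versus 4h. Leaving out each library in turn, they reached down to 743 lower at 2h (without replicate 2 of clone 8 at 0h), 303 higher (without replicate 1 of clone 4 at 2h) and 260 lower (without replicate 1 of clone 4 at 4h) at 4h versus 2h, and 644 higher in rev versus 4h (without replicate 1 of clone 4 at 4h). Of the 70 list counts, 41 moved by over 1.5 times with library size alone, 27 without the clone term, 11 with the covariate, 11 without the low-count filter, 11 with the 3 libraries left out, 8 in DESeq2 and 6 with only the 2 groups compared. Same-numbered samples of clone 8 deviated together between 0h and 2h (r = 0.239), 0h and 4h (0.168) and 2h and 4h (0.216), but not every pair was over 0.1 (12 pairs over both clones, r of -0.395 to 0.239), so the numbers are not taken to pair them, and with the replicate block the members called were the same in number, 2 higher at 4h versus 0h.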
